A study of Mus musculus with 3 samples.

Results

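Transcripts of 8 genes of Notch signalling were followed across vessel classes in endothelial cells of mouse skeletal muscle: the receptors Notch1 and Notch4, the ligands Dll4, Jag1 and Jag2, the DNA-binding partner Rbpj, and the targets Hes1 and Hey1. The genes were found by symbol, each in 1 of 41605 gene rows. The cells came from the gastrocnemius of C57BL/6N mice and were sorted as CD31+, CD45- and SYTOX blue negative before droplet capture. Each of the 3 groups was a single library: running (single-housed mice with 14 days of access to a wheel for voluntary running), untreated (no treatment, with housing not given in the labels) and sedentary (single-housed mice without running). The number of animals behind a library and the sex and age of the animals are not stated in the sources used here. For all 3 libraries, batch and group cannot be told apart, and that holds for running against sedentary as well. With 1 library a group there is no test between groups, and the intervals below are exact 95% intervals that cover counting error only. They treat the unique molecular identifiers (UMIs) of 1 cell as independent and are therefore too narrow.

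Notch receptors are cut when a ligand on a neighbouring cell binds them, and the freed intracellular domain enters the nucleus, joins RBPJ and switches on targets of the Hes and Hey families. In blood vessels the pathway is known for specifying and keeping arterial identity and, through DLL4, for restraining sprouting at the vessel front. DLL4 and JAG1 can act in opposite ways on the same receptor in sprouting endothelium of the mouse retina, and NRARP, itself a target, lowers the response. On GRCm38 (GENCODE annotation) Notch1 lies at chr2:26457903-26516663 on the minus strand and Notch4 at chr17:34564268-34588503 on the plus strand. Dll4 lies at chr2:119325784-119335962 (plus), Jag1 at chr2:137081456-137116644 (minus) and Jag2 at chr12:112907819-112929776 (minus). Rbpj lies at chr5:53466152-53657362 (plus), Hes1 at chr16:30064384-30067796 (plus) and Hey1 at chr3:8663359-8667256 (minus). All are annotated as protein-coding.

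The libraries held 3260 running, 4376 untreated and 4079 sedentary barcodes, with 5983685, 8002866 and 5625068 UMIs. Of 11715 barcodes 11554 were kept, and 75 barcode sequences occurred in 2 libraries and 0 in all 3. Clusters were made without the 8 genes and without 55 other genes of the pathway, so the class of a cell does not rest on them. Artery-like cells numbered 627 running, 1129 untreated and 834 sedentary, capillary-like cells 2173, 2436 and 2884, and vein-like cells 220, 620 and 203. The endothelial genes Pecam1 and Cdh5 were present in each of these classes, with Cdh5 at 1657, 2000 and 1870 CPM in running, untreated and sedentary capillary-like cells. CPM is the UMI count of a gene scaled to the same total in every class and library. The pericyte gene Pdgfrb stood at 1 to 8 UMIs in each class and library, while Rgs5, a mural marker that endothelial droplets also held, was at 176, 167 and 139 CPM in capillary-like cells of the 3 libraries. Haemoglobin and other erythrocyte genes summed to 676 CPM in running, 97.8 CPM in untreated and 1017 CPM in sedentary capillary-like cells, and their part in the results was not tested.

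Hey1, a transcriptional repressor of the Hairy family, was the gene with the steepest arterial pattern among the 8. It stood at 358 CPM in running, 466 CPM in untreated and 374 CPM in sedentary artery-like cells, against 58.0, 72.1 and 73.6 CPM in capillary-like cells and 20.5, 11.9 and 18.2 CPM in vein-like cells. The lowest artery-like value was thus several-fold above the highest capillary-like value. The log2 ratio of artery-like to capillary-like cells was 2.62 (2.38 to 2.87) in the running library, 2.69 (2.496 to 2.891) in the untreated library and 2.34 (2.13 to 2.57) in the sedentary library. Between artery-like and vein-like cells it was 4.08 in running, 5.26 in untreated and 4.29 in sedentary cells, with only 15, 19 and 10 vein-like UMIs behind it. After each cell was thinned to 1000 UMIs, 23.8% of running, 33.3% of untreated and 26.9% of sedentary artery-like cells had a Hey1 UMI. In thinned vein-like cells the share was 1.95%, 0.865% and 1.55%, and the part of free RNA in these shares was not tested. Without thinning the artery-like shares were 40.4%, 47.3% and 39.3%, against 6.36%, 2.74% and 4.43% in vein-like cells.

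**Figure D1:**
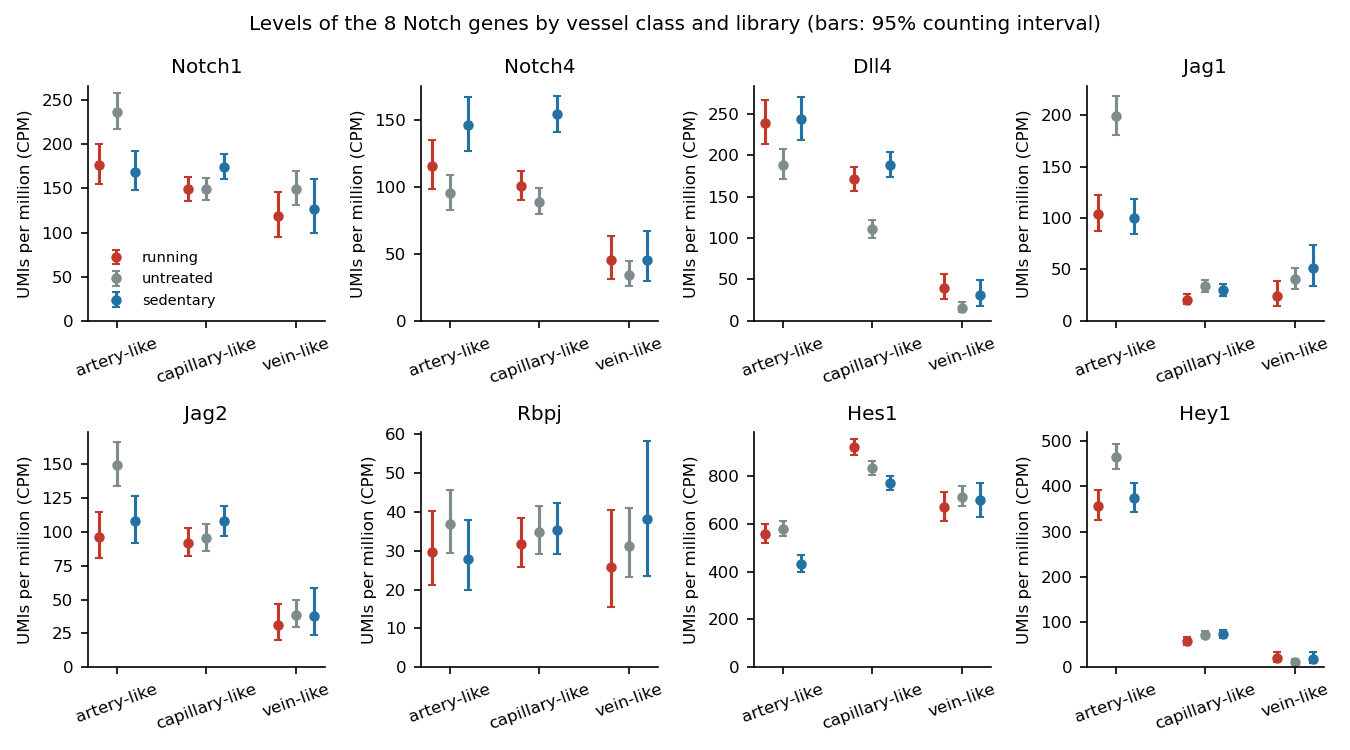
Level in CPM (y axis) of each of the 8 genes in artery-like, capillary-like and vein-like cells of the running, untreated and sedentary libraries, with bars for the exact 95% counting interval; each panel has its own scale. Hey1 and Jag1 sit highest in artery-like cells of every library, and Hes1 is lowest there.

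Jag1, which encodes the ligand Jagged1, had the next highest ratio of artery-like to capillary-like cells in every library. Its level was 104 CPM in running, 199 CPM in untreated and 100 CPM in sedentary artery-like cells, against 20.5, 33.6 and 29.6 CPM in capillary-like cells. In vein-like cells it was 24.5, 40.6 and 50.9 CPM, near or above the capillary-like level. The artery-like to capillary-like log2 ratio was 2.33 in running (1.91 to 2.78), 2.56 in untreated (2.27 to 2.86) and 1.76 in sedentary cells (1.38 to 2.14). Against vein-like cells it was 2.04, 2.28 and 0.96, below that of Dll4 in each library. Untreated artery-like cells had more Jag1 than those of either other library. That was so in both larger artery-like clusters: 106 CPM in running, 177 CPM in untreated and 113 CPM in sedentary cells of cluster 4, and 98.5, 269 and 92.5 CPM in cluster 6. Cluster 4, led by Col8a1, Tgfb2 and Edn1, held 38.8% of running, 78.3% of untreated and 30.7% of sedentary artery-like cells, and cluster 6, led by Fbln5 and Gja4, held 60.1%, 18.2% and 68.5%. Among artery markers Gja5 was also highest in untreated artery-like cells, at 127 CPM in running, 433 CPM in untreated and 106 CPM in sedentary cells. Fbln5 was lowest there, at 689, 512 and 609 CPM, and the sum of the 12 artery markers was 3834, 4200 and 3748 CPM.

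Dll4, the ligand gene best known from arterial and sprouting endothelium, was found in both artery-like and capillary-like cells, with the higher class level in artery-like cells. It was at 239 CPM in running, 189 CPM in untreated and 244 CPM in sedentary artery-like cells and at 171, 111 and 189 CPM in capillary-like cells. Vein-like cells had 39.5, 15.6 and 30.9 CPM, the lowest level in each library. The artery-like to capillary-like log2 ratio was 0.48 (0.28 to 0.68) in running, 0.77 (0.57 to 0.97) in untreated and 0.37 (0.18 to 0.56) in sedentary cells. Between artery-like and vein-like cells it was 2.57, 3.57 and 2.94. Among cells of 1000 to 2000 UMIs Dll4 was at 258.5 CPM in artery-like against 159 CPM in capillary-like running cells. In untreated cells it was at 173.5 against 108 CPM and in sedentary cells at 232 against 151 CPM. Under 1000 UMIs the sedentary order was reversed, at 231 against 274 CPM. Over 16 alternatives 14 put the artery-like to capillary-like ratio past the fold in running and in sedentary cells, with lowest values of 0.21 and 0.10. As a share of the UMIs of Dll4 and Jag1 together, Dll4 made up 69.8% in running, 48.7% in untreated and 70.9% in sedentary artery-like cells. In capillary-like cells it made up 89.3% (86.6 to 91.6), 76.7% (72.9 to 80.2) and 86.4% (83.7 to 88.8), so the mix of ligand transcripts leaned further to Dll4 there. In vein-like cells Dll4 was 61.7%, 27.8% and 37.8% of the pair, from 45 to 90 UMIs.

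Jag2, the gene of the second Jagged ligand, did not share the Jag1 pattern. It was at 96.2 CPM in running, 149 CPM in untreated and 108 CPM in sedentary artery-like cells, and at 91.9, 95.6 and 108 CPM in capillary-like cells. The artery-like to capillary-like log2 ratio was 0.07 (-0.24 to 0.37) in running and 0.01 (-0.28 to 0.28) in sedentary cells, intervals that include equal levels, and 0.64 (0.42 to 0.86) in untreated cells. Vein-like cells stood lower, at 31.4, 38.7 and 38.2 CPM. Artery-like and capillary-like cells differ in depth. At 2000 UMIs or more, Jag2 was at 93.4 CPM in artery-like against 73.6 CPM in capillary-like running cells. In sedentary cells of that depth it was at 101 against 58.7 CPM. Under 1000 UMIs the values were 108 against 159 CPM in running and 198 against 182 CPM in sedentary cells. Over 16 alternatives the artery-like to capillary-like ratio ranged over -0.12 to 0.35 in running and -0.18 to 0.48 in sedentary cells. Hey1, Jag1, Dll4 and Jag2, 4 of the 8 genes, had their highest level in artery-like cells in all 3 libraries, which 13.2% of 10333 genes did. For Jag2 the margin in the sedentary library was within its counting interval. Under the alternatives that count was 3 to 6 of 8.

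The sequence just upstream of the genes is shown for the 2 ligand genes with unlike class patterns and for the receptor gene whose level was lower in running capillary-like cells. RefSeq promoter windows (build GRCm38.p6, 250 bases before to 50 after the gene start) were at hand for 6 of the 8 genes, and Hes1 and Hey1 are named only. The stretches lie upstream of the start in both RefSeq and the GENCODE annotation, each on its gene's own strand, 5′ to 3′, with the dinucleotide CG in capitals. Those of Jag1 (chr2:137116645-137116770, minus strand), Dll4 (chr2:119325534-119325783, plus strand) and Notch4 (chr17:34564045-34564267, plus strand) read as follows.
Jag1: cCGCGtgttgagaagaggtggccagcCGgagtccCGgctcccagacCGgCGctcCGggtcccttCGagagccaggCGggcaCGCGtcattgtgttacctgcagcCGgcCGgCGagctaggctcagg
Dll4: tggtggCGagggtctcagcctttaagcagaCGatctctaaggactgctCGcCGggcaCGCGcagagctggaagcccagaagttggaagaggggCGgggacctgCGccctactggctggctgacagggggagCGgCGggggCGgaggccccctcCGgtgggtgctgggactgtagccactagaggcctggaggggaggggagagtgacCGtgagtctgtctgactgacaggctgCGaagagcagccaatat
Notch4: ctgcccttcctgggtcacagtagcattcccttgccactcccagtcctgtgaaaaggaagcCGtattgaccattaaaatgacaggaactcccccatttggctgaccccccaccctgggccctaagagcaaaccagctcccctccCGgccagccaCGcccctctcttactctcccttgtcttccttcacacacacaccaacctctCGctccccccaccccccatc
The Jag1 stretch held 14 CG in 126 bases and the Dll4 stretch 14 in 250, against 4 in the 223 bases of Notch4. Over the full windows Notch4 had 5 CG, Dll4 17, Jag1 22, Notch1 23, Rbpj 26 and 28 in its 2 windows and Jag2 63, beside a median of 7 over 32851 windows. The windows of Notch1 (chr2:26503773-26504072), Jag2 (chr12:112929446-112929745) and Rbpj (chr5:53590096-53590395 and chr5:53590236-53590535) lie inside the GENCODE spans given above. They sit at RefSeq starts, not at the outer ends of those spans. The RBPJ motif GTGGGAA, the ETS motif CCGGAA and the SOX motif AACAAT, each searched on both strands, were in none of the windows of these 6 genes, and were in 6.38%, 14.9% and 10.7% of all windows. That says only that these letters are not in these windows.

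Notch1, the receptor gene known as the main one of endothelium, was highest in artery-like cells of the running and untreated libraries. It was at 177 CPM in running, 237 CPM in untreated and 169 CPM in sedentary artery-like cells, at 149, 149 and 175 CPM in capillary-like cells, and at 119, 150 and 127 CPM in vein-like cells. Artery-like cells exceeded vein-like cells by log2 ratios of 0.57 (0.22 to 0.95) in running, 0.66 (0.44 to 0.89) in untreated and 0.40 (0.02 to 0.82) in sedentary cells. Against capillary-like cells the ratio was 0.67 (0.49 to 0.84) in the untreated library, 0.25 (0.02 to 0.47) in the running library and -0.04 (-0.27 to 0.17) in the sedentary library. The last 2 depend on depth. Among cells of 1000 to 2000 UMIs Notch1 was at 124 CPM in artery-like against 146 CPM in capillary-like cells of the running library, and at 166 against 122 CPM in the sedentary library. Over 16 alternatives the ratio ranged over -0.23 to 0.46 in running and -0.28 to 0.45 in sedentary cells, so neither library gave a fixed direction. The 3' end of Notch1 overlaps 2 transcripts of the opposite strand, 0610009E02Rik and Gm13568, and the start of Dll4 overlaps Gm14207 likewise; Gm20462 lies in Notch4, and Gm10441 and Gm40304 in Rbpj, also on the opposite strand. Whether the counting used strand is not given in the sources used here, so reads there may not be told apart.

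Notch4, the receptor gene that in mice is largely endothelial, was lower in vein-like cells than in the other classes. Artery-like cells had 115 CPM in running, 94.98 CPM in untreated and 146 CPM in sedentary libraries, capillary-like cells 101, 88.6 and 154 CPM, and vein-like cells 45.0, 34.3 and 45.4 CPM. Over whole classes the artery-like to capillary-like log2 ratios of 0.20, 0.10 and -0.08 had intervals that include 0. The classes differ in depth, and among cells of 1000 to 2000 UMIs Notch4 was at 138 CPM in artery-like against 80.9 CPM in capillary-like cells of the running library. In the untreated library it was at 79.9 against 74.5 CPM and in the sedentary library at 161 against 114 CPM. Over 16 alternatives 4 put the ratio past the fold in running, 1 in untreated and 4 in sedentary cells, with highest values of 0.78, 0.41 and 0.50. Artery-like cells exceeded vein-like cells by log2 ratios of 1.34 (0.81 to 1.95) in running, 1.46 (1.04 to 1.92) in untreated and 1.65 (1.08 to 2.34) in sedentary cells. Among the UMIs of both receptors, Notch4 made up 27.5% in running, 18.6% in untreated and 26.3% in sedentary vein-like cells, against 40.3%, 37.2% and 46.9% in capillary-like cells. Of the receptors outside the 8 genes, Notch2 had 0 to 11 UMIs and Notch3 0 to 5 UMIs in each of the 3 vessel classes and libraries. Notch3, the receptor gene of pericytes and smooth muscle, was at 376 CPM in running, 428 CPM in untreated and 682 CPM in sedentary cells of the small mural-like cluster of 100 cells. That cluster had 41 running, 47 untreated and 12 sedentary cells. Its leading genes included the fibroblast markers Gsn, Dcn and Col3a1 beside mural ones, so it was a mixed cluster.

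Between artery-like and vein-like cells, 6 of the 8 genes were past the fold higher in artery-like cells in each library: Hey1, Dll4, Jag1, Jag2, Notch4 and Notch1. The fold is a log2 ratio of at least 0.32 in either direction, counted over genes with at least 20 UMIs in the 2 sums compared. Among all such genes 36.6% were past it higher in the running, 34.5% in the untreated and 35.6% in the sedentary library. Past the fold lower in artery-like cells were 0, 0 and 2 of the 8 genes, the 2 being Hes1 and Rbpj, beside 21.4%, 23.4% and 21.3% of all genes. The median log2 ratio of the 8 genes was 1.47, 1.70 and 1.21, beside 0.14, 0.11 and 0.13 over all genes. Between artery-like and capillary-like cells 3 genes in running, 5 in untreated and 3 in sedentary cells were past the fold higher, beside 19.1%, 19.5% and 17.5% of all genes, and 1, 1 and 2 lower, beside 27.1%, 24.1% and 28.7%. Hey1, Jag1 and Dll4 were among the higher genes in all 3 libraries and Hes1 among the lower.

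Hes1, a repressor gene of the Hes family that answers to Notch and to other signals, ran the other way. It was at 557 CPM in running, 578 CPM in untreated and 433 CPM in sedentary artery-like cells, against 920, 833 and 769 CPM in capillary-like cells and 671, 713 and 698 CPM in vein-like cells. The artery-like to capillary-like log2 ratio was -0.72 (-0.84 to -0.61) in running, -0.53 (-0.62 to -0.43) in untreated and -0.83 (-0.96 to -0.70) in sedentary cells. Its sign held over 16 alternatives, with 15 past the fold in running, 16 in untreated and 15 in sedentary cells. The highest values were -0.152, -0.335 and -0.161. Artery-like cluster 4 had 796.5, 667 and 622 CPM, above capillary-like clusters 0 and 3 and below cluster 5 in each library. Artery-like cluster 6 had 328.5, 176 and 297 CPM, below these capillary-like clusters. The part of the cluster mix in the class ratio was not tested. Of the UMIs of the targets Hes1 and Hey1, Hes1 made up 60.9%, 55.4% and 53.6% in artery-like cells of the 3 libraries, against 94.1%, 92.0% and 91.3% in capillary-like cells. The Hes1 share of the pair was higher in capillary-like cells of each library, by over 30 percentage points.

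Within a class, Hes1 varied more between clusters than between libraries. Over 17 units of 1 capillary-like cluster in 1 library with at least 50 cells, Hes1 ranged over 301 to 1351 CPM. In capillary-like cluster 5, led by Pycard, Socs1 and Cdkn1a, it was at 1253 CPM in running, 1158 CPM in untreated and 1223 CPM in sedentary cells. In cluster 0, led by Car8, Prg4 and Adh1, it was at 409, 388 and 457 CPM. The clusters lay further apart than the libraries did within either cluster. The summed level of 20 immediate-early genes, such as Fos, Jun and Egr1, which respond within minutes to stimuli and to tissue dissociation, moved with Hes1. It was 29800, 30380 and 27510 CPM in cluster 5 and 5580, 4940 and 5138 CPM in cluster 0. Over 28 units of 1 cluster in 1 library, Hes1 and this sum had a Pearson r of 0.86, given as a description because the units share libraries, depth and base composition. For Hey1 the same r was -0.12, and for the other 6 genes it lay between -0.46 and -0.10. The immediate-early genes were not left out when the clusters were made. The spread of Hes1 between clusters and its r with their sum are therefore not independent of the clustering. The part of the immediate-early genes in the Hes1 levels was not tested.

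**Figure D2:**
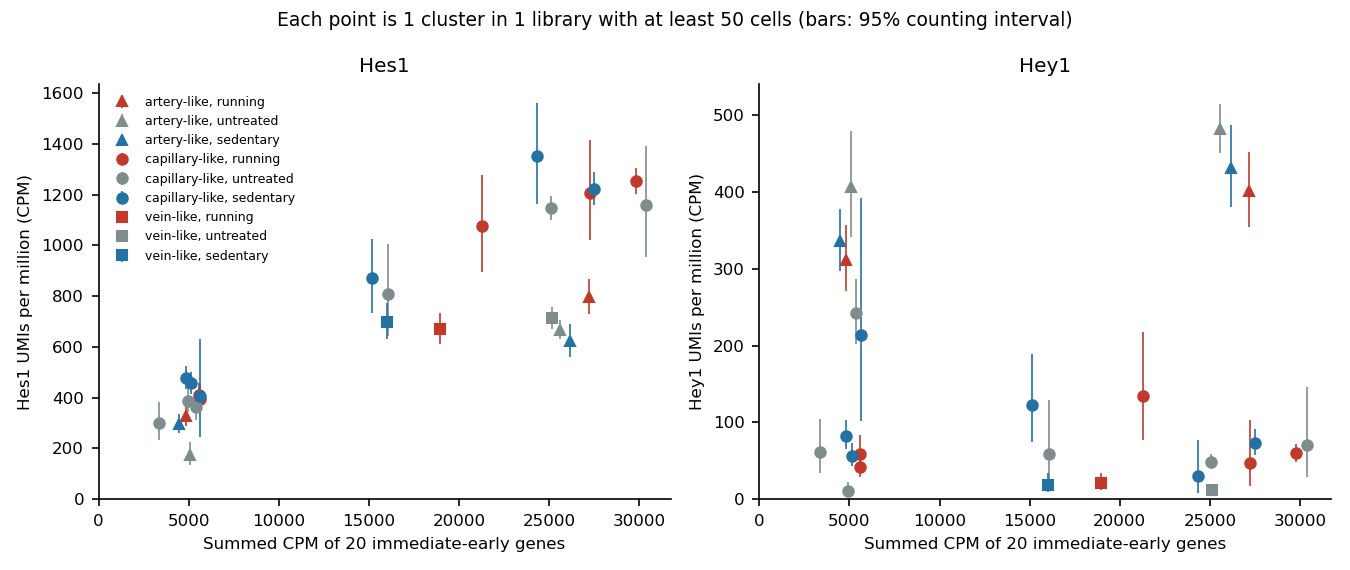
Hes1 (left) and Hey1 (right) in CPM on the y axis against the summed CPM of 20 immediate-early genes on the x axis; each point is 1 cluster in 1 library with at least 50 cells, its shape gives the vessel class, its colour the library, and bars are exact 95% counting intervals. Hes1 ranges over 301 to 1351 CPM in capillary-like clusters and is highest where the immediate-early sum is high. Hey1 is at 312 to 482 CPM in artery-like and 10.6 to 242 CPM in capillary-like clusters. The intervals of capillary-like cluster 8 overlap those of artery-like clusters.

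Rbpj, the gene of the DNA-binding protein on which the receptors' signal converges, was the flattest of the 8. It was at 29.6 CPM in running, 36.8 CPM in untreated and 27.9 CPM in sedentary artery-like cells, at 31.8, 35.0 and 35.3 CPM in capillary-like cells, and at 25.9, 31.2 and 38.2 CPM in vein-like cells. All these intervals overlapped, with 19 to 129 UMIs behind each value.

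Hey1 also varied inside the capillary-like class. In cluster 8, led by the netrin receptor gene Unc5b and Btnl9, it was at 242 CPM in untreated and 213 CPM in sedentary cells, of 436 and 58 cells, and the running library had 24 cells there. In the untreated library the other capillary-like clusters had 10.6 to 71.1 CPM. Most cells of cluster 8 came from the untreated library, so a trait of that library and a type of cell cannot be told apart.

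Outside the 3 vessel classes the cells were few. In the lymphatic-like cluster of 43 running, 27 untreated and 10 sedentary cells, Notch1 was at 146, 252 and 145 CPM and Hes1 at 1177, 768 and 1207 CPM. Notch4 had 2 UMIs in running, 0 in untreated and 0 in sedentary lymphatic-like cells, where 3 counts would be 23.1, 37.8 and 145 CPM, so levels under these were not detectable. Cells of the cluster led by Apln, a peptide gene of sprouting endothelium, numbered 64 running, 8 untreated and 23 sedentary, and Dll4 there was at 141, 85.9 and 153 CPM from 20, 2 and 9 UMIs. In the cluster led by Penk, Hes1 was at 1019 CPM in running, 552 CPM in untreated and 707 CPM in sedentary cells. Among 23 erythrocyte-like barcodes, which carry endothelial RNA as well (17 had a Cdh5 UMI), 10 had a Hes1 UMI and 6 a Hey1 UMI.

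Running was next set against sedentary housing, where a difference between libraries and one that goes with exercise cannot be told apart. In capillary-like cells, 3 of the 8 genes were past the fold lower in the running library (Notch4, Jag1 and Hey1) and 0 were past it higher. Among 11070 genes with at least 20 UMIs, 16.1% were past it lower and 14.6% higher. The median log2 ratio was -0.23 over the 8 genes and -0.01 over all genes.

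Notch4 had the largest of these differences, at 101 CPM in running against 154 CPM in sedentary capillary-like cells, with the untreated library at 88.6 CPM. The log2 ratio of running to sedentary was -0.62 (-0.82 to -0.41). After thinning to 1000 UMIs, 7.16% of running, 7.36% of untreated and 10.9% of sedentary capillary-like cells had a Notch4 UMI, and without thinning 13.7%, 11.8% and 15.9%. It was also lower in running cells in each of the 5 capillary-like clusters with at least 50 cells in both libraries, with log2 ratios of -0.71 to -0.30. Cluster 3 gave 206 against 265 CPM (-0.36, -0.71 to -0.03), cluster 0 gave 79.6 against 108 CPM (-0.43, -0.92 to 0.04) and cluster 5 gave 79.8 against 97.9 CPM (-0.30, -0.67 to 0.08). Cluster 3, alone in having an interval that leaves out 0, was the shallowest, with medians of 798 UMIs in running and 607 in sedentary cells. It held 25.4% of running and 45.5% of sedentary capillary-like cells, so the class ratio includes a difference in the mix of these 5 clusters. Each of the other 7 genes was higher in running cells in at least 1 of the 5. Over 16 alternatives the ratio stayed past the fold, between -0.70 and -0.44. The running to untreated ratio of Notch4 was 0.18 (-0.04 to 0.41), so of the 3 libraries the sedentary one had the highest level.

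Jag1 was at 20.5 CPM in running against 29.6 CPM in sedentary capillary-like cells, a log2 ratio of -0.53 (-1.003 to -0.071) from 67 and 99 UMIs. The untreated library was at 33.6 CPM, so running was lowest. Jag1 was the only 1 of the 8 genes past the fold lower in running than in both other libraries, as 5.66% of 10893 genes were. None of the 8 was past it higher than in both, where 8.52% of genes were. Thinned to 1000 UMIs its ratio was -0.31, no longer past the fold.

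Hey1 was at 58.0 CPM in running against 73.6 CPM in sedentary capillary-like cells, a log2 ratio of -0.34 (-0.62 to -0.06). Thinned, it was -0.10 (-0.55 to 0.34), and among cells of 1000 to 2000 UMIs it was 0.05, the opposite sign. Under 1000 UMIs it was 52.6 CPM in running against 92.0 CPM in sedentary cells (-0.79, -1.44 to -0.21), and at 2000 UMIs or more 51.4 against 67.7 CPM (-0.40, -0.93 to 0.13).

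Hes1 was higher in running capillary-like cells, at 920 against 769 CPM, with a log2 ratio of 0.26 (0.18 to 0.34) that was short of the fold. The 2 libraries filled different clusters: cluster 5, rich in immediate-early transcripts, held 46.8% of running, 3.04% of untreated and 24.4% of sedentary capillary-like cells, and cluster 3 held 25.4%, 9.85% and 45.5%, while cluster 9 held 47.9% of the untreated cells. Inside cluster 5 the Hes1 ratio was 0.03 (-0.06 to 0.13), and over the 5 clusters 3 ratios were below 0 and 2 above, between -0.27 and 0.31. The immediate-early sum of the class was 20060 CPM in running, 17110 CPM in untreated and 13630 CPM in sedentary capillary-like cells.

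The other genes differed by less than the fold. Notch1 had a log2 ratio of -0.23 (-0.41 to -0.05), Jag2 of -0.23 (-0.45 to -0.003), Rbpj of -0.15 (-0.55 to 0.24) and Dll4 of -0.14 (-0.31 to 0.02). The intervals of Rbpj and Dll4 include 0. Among cells of 1000 to 2000 UMIs the Notch1 ratio had the opposite sign, 0.26 (-0.04 to 0.56), with 146 CPM in running against 122 CPM in sedentary cells, and 3 of 16 alternatives turned it.

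**Figure D3:**
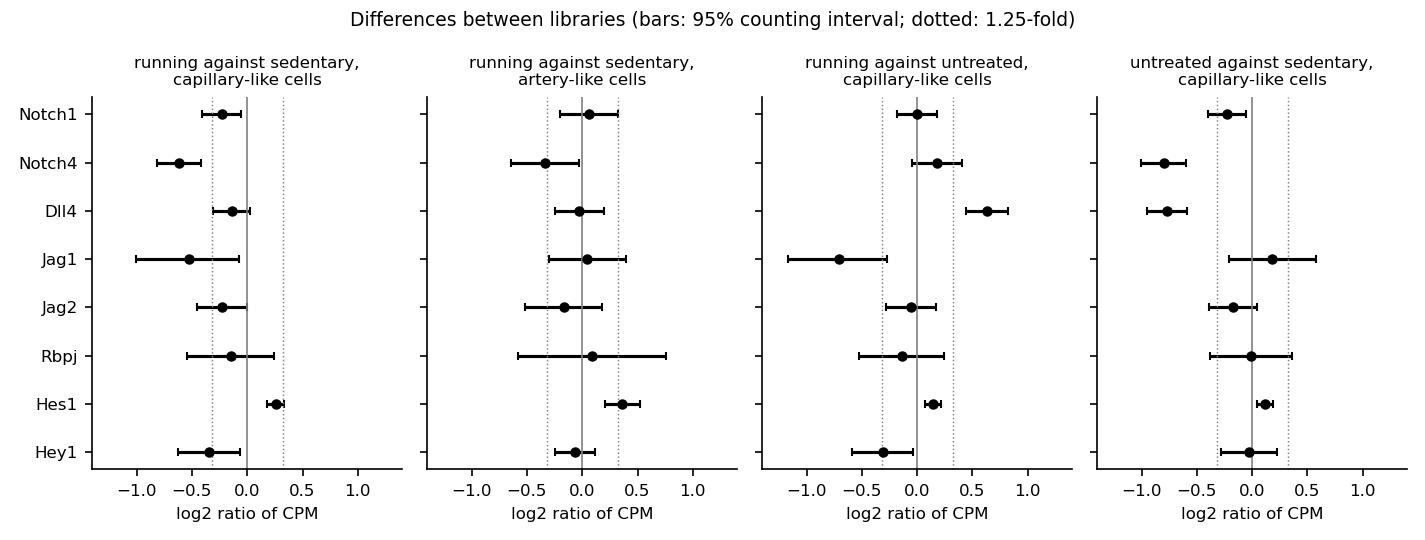
The x axis gives the log2 ratio of CPM for each of the 8 genes (rows) in 4 comparisons between libraries, with bars for the exact 95% counting interval and dotted lines at the fold (log2 0.32 either way). Notch4 lies at -0.62 for running against sedentary and at -0.80 for untreated against sedentary capillary-like cells, and Dll4 at 0.63 for running against untreated.

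Depth moved with several of these levels. The median was 1305 UMIs per cell in running, 1388 in untreated and 904 in sedentary capillary-like cells. Levels of Notch1 were 290 CPM in sedentary cells under 1000 UMIs, against 122 CPM in those of 1000 to 2000 and 125 CPM in those of 2000 or more. The running library had 244, 146 and 108 CPM and the untreated library 209, 139 and 143 CPM over the same depths, so shallow cells had the highest Notch1 in each library. Notch4, Dll4, Jag1 and Jag2 likewise had their highest CPM in the shallowest cells of every library, and Hes1 its lowest. Within depth ranges the running to sedentary log2 ratio of Notch4 was -0.45 (-0.79 to -0.13), -0.49 (-0.85 to -0.14) and -0.27 (-0.69 to 0.16) from shallow to deep cells. For Hes1 it was 0.31, 0.22 and 0.18, each interval above 0. The ratios of both genes thus kept their sign at each depth, and that of Notch4 was smallest in the deepest cells. The running to sedentary ratio of Jag1 was -0.29, -0.49 and -0.51 over the same depths, each interval including 0.

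**Figure D4:**
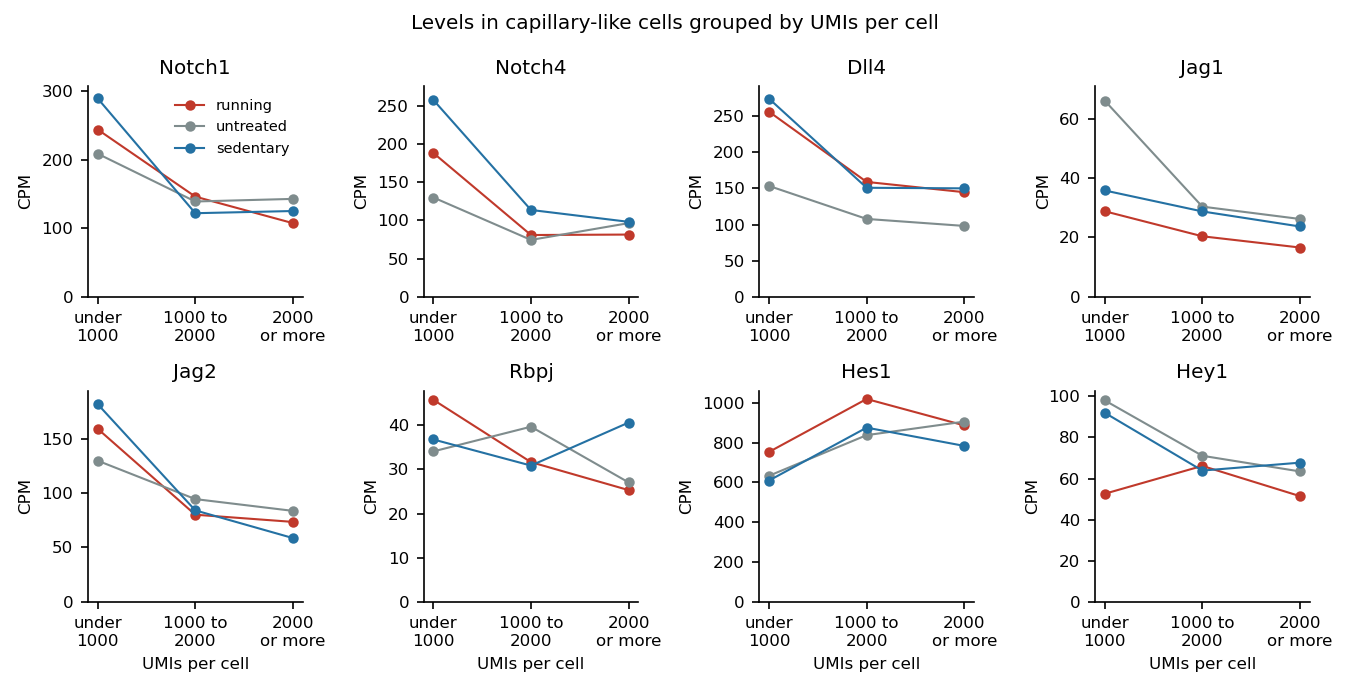
CPM (y axis) of each gene in capillary-like cells of the running, untreated and sedentary libraries, grouped on the x axis by UMIs per cell. Notch1 in the sedentary library is at 290 CPM under 1000 UMIs and at 122 CPM at 1000 to 2000 UMIs, and Notch4 in the running library lies below the sedentary library in all 3 groups.

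In artery-like cells, 1 of the 8 genes was past the fold higher in the running than in the sedentary library and 1 lower, where 18.7% and 16.4% of all genes were. Hes1 was at 557 against 433 CPM (log2 ratio 0.36, 0.21 to 0.52), and Notch4 at 115 against 146 CPM (-0.33, -0.64 to -0.03). Both kept their sign over 16 alternatives, with 9 past the fold for Hes1 and 14 for Notch4. Over the whole class the ratios of Hey1 (-0.06, -0.25 to 0.12), Jag1 (0.05, -0.30 to 0.39) and Dll4 (-0.03, -0.25 to 0.19) had intervals that include 0. The Hey1 ratio differed by depth: it was -0.80 (-1.80 to 0.04) under 1000 UMIs, -0.60 (-1.001 to -0.23) at 1000 to 2000 UMIs and 0.06 (-0.16 to 0.29) at 2000 or more. At 1000 to 2000 UMIs Hey1 was at 228 CPM in running against 347 CPM in sedentary artery-like cells, past the fold, and at 2000 or more at 421 against 403 CPM. In vein-like cells Jag1 (18 against 28 UMIs, -1.04) and Rbpj (19 against 21 UMIs, -0.56) were past the fold lower and Dll4 (29 against 17 UMIs, 0.34) past it higher, where 21.4% and 21.7% of all genes were. Of these only the Jag1 interval (-1.99 to -0.15) leaves out 0, and the ratios of Jag1 and Rbpj turned positive under at least 1 alternative.

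The ligands Dll4 and Jag1 set running apart from untreated cells. In capillary-like cells Dll4 was higher in running than in untreated cells (171 against 111 CPM, log2 ratio 0.63, 0.44 to 0.82) and Jag1 lower (20.5 against 33.6 CPM, -0.71, -1.17 to -0.28). These were the 2 of 8 genes past the fold, 1 in each direction, beside 30.6% of all genes higher and 17.6% lower and a median of 0.10. Against the sedentary library, untreated capillary-like cells were past the fold lower in Notch4 (88.6 against 154 CPM, -0.80) and Dll4 (111 against 189 CPM, -0.77) and in no gene higher, where 31.6% of all genes were lower and 17.3% higher, with a median of -0.12. These ratios passed the fold in all 16 alternatives. The running and untreated comparisons share libraries, so they are not independent of each other.

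Between untreated and sedentary artery-like cells 7 of the 8 genes were past the fold. Jag1 (0.98, 0.71 to 1.27), Notch1 (0.48), Jag2 (0.46), Hes1 (0.42) and Rbpj (0.39, -0.16 to 0.99) were past the fold higher, and Notch4 (-0.62) and Dll4 (-0.37) lower, where 22.9% and 29.4% of 9753 genes were. Hes1 did not keep its direction inside both larger artery-like clusters. It was at 667 CPM in untreated against 622 CPM in sedentary cells of cluster 4. In cluster 6 it was at 176 against 297 CPM, the opposite direction. The other genes named here kept their direction in both clusters. Running artery-like cells had less Jag1 (-0.94), Jag2 (-0.63), Notch1 (-0.42) and Hey1 (-0.38) and more Dll4 (0.34) than untreated ones, beside 21.4% of all genes lower and 29.7% higher. All of these kept their direction in clusters 4 and 6. Dll4 was at 190 CPM in running, 179 CPM in untreated and 189 CPM in sedentary cells of cluster 4. In cluster 6 it was at 285, 234 and 282 CPM. Inside each cluster the Dll4 differences from the untreated library were short of the fold.

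Of the 55 other genes of the pathway, 46 had at least 20 UMIs over running and sedentary capillary-like cells, and 3 were past the fold higher and 8 lower in the running library, with a median log2 ratio of -0.02. Among all genes 14.6% were past it higher and 16.1% lower. The list thus lies near the background for lower genes and under it for higher ones. Nuclear cofactors had 4 of 18 lower and 0 higher, genes for processing of ligands and receptors 2 of 17 lower and 1 higher, and targets 1 of 4 lower and 2 higher. Tle3, a Groucho-family corepressor gene, was at 20.8 CPM in running, 29.8 CPM in untreated and 37.4 CPM in sedentary cells (running to sedentary -0.84, -1.30 to -0.41). Kat2b, an acetyltransferase gene, was at 25.7, 37.4 and 36.8 CPM (-0.52), and Tle1 at 39.1, 50.7 and 50.5 CPM (-0.37). These cofactors are named because running was past the fold lower than both other libraries, so that order is no separate result.

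Efnb2, the arterial ephrin gene that Notch induces, was at 107 CPM in running, 162 CPM in untreated and 142 CPM in sedentary capillary-like cells (running to sedentary -0.40, -0.61 to -0.20). In artery-like cells Efnb2 was at 167, 345 and 212 CPM and in vein-like cells at 31.4, 59.3 and 38.2 CPM. Neurl1b, which encodes a ubiquitin ligase of Notch ligands, was at 41.8 CPM in running, 210 CPM in untreated and 58.0 CPM in sedentary capillary-like cells (running to sedentary -0.47, running to untreated -2.33). Ccnd1, the cyclin D1 gene, was past the fold higher than in both other libraries, at 164 CPM against 65.3 CPM in untreated and 129 CPM in sedentary cells (0.35 to sedentary). In the Apln-led cluster Ccnd1 was at 954 CPM in running cells.

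Nrarp, the feedback target, was at 354 CPM in running, 220 CPM in untreated and 339 CPM in sedentary capillary-like cells, with a running to sedentary log2 ratio of 0.06 (-0.06 to 0.18). In artery-like cells Nrarp was at 405, 308 and 317 CPM and in vein-like cells at 263, 136 and 205 CPM, so it was spread over all classes, unlike Hey1. Dll1, the remaining ligand gene with counts, was highest in vein-like cells, at 76.4, 96.7 and 109 CPM, against 33.6, 24.9 and 33.2 CPM in capillary-like and 26.7, 22.2 and 21.6 CPM in artery-like cells. The artery-like to vein-like log2 ratio of Dll1 was -1.51 in running, -2.11 in untreated and -2.33 in sedentary cells, opposite in sign to that of Dll4. The targets Hey2 and Heyl had 0 to 5 UMIs in each vessel class and library. Heyl was at 109 CPM in running, 152 CPM in untreated and 227 CPM in sedentary cells of the mixed mural-like cluster, the last from 12 cells.

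**Figure D5:**
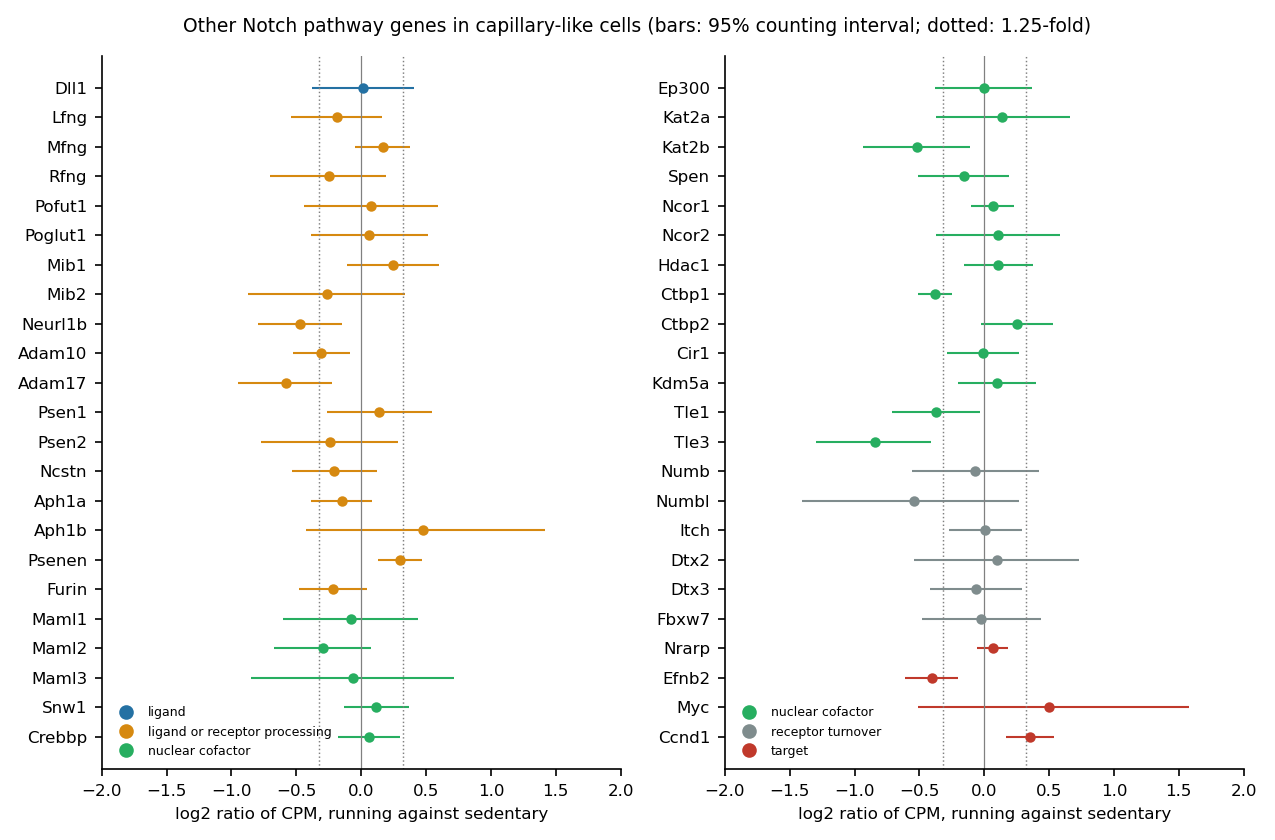
The x axis gives the log2 ratio of CPM, running against sedentary capillary-like cells, for the 46 other pathway genes (rows, coloured by role) with at least 20 UMIs; bars are exact 95% counting intervals and dotted lines mark the fold (log2 0.32 either way). Tle3 lies lowest at -0.84 and Nrarp lies at 0.06 with a narrow interval.

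Likeness of pattern was measured as the Pearson r of log2(CPM + 10) over the 28 units among 3082 genes, as a description without a test. The genes most like Hey1 were Sema3g (0.94), Fn1 (0.92) and Igfbp3 (0.90), and those most like Jag1 were Gja5 (0.83), Col8a1 (0.81) and Edn1 (0.80). Hes1 was most like Slc38a2 (0.90), Jund (0.88) and Apold1 (0.88). Sema3g and Gja5 are artery markers used to name clusters. The nearest gene to Jag2 was another of the 8, Notch4 (0.83), and Notch4 in turn was nearest to Itpkb (0.84), Ptprg (0.84) and Podxl (0.84). Notch1 was nearest to Ptprb (0.81) and Dll4 to Il10rb (0.83). For Rbpj the highest value was 0.77, with Mbnl2. The r between the 2 targets, Hes1 and Hey1, was -0.30, and that between the ligands Dll4 and Jag1 was 0.20. Levels of depth-dependent genes enter these values, since the units differ in depth.

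In single artery-like cells thinned to 1000 UMIs, Dll4 and Hey1 UMIs fell together in 36 of 534 running, 60 of 987 untreated and 31 of 625 sedentary cells, where independent detection would give 27.8, 55.0 and 32.0. Jag1 and Hey1 fell together in 16, 39 and 15 cells, where it would give 12.4, 49.0 and 13.7. Neither pair differed from independence in 1 direction in all 3 libraries.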

How the data were processed

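The authors deposited, per sample, a matrix of UMI counts per gene and barcode, made from 10x Genomics libraries, per the labels, with Cell Ranger 2.0.2 on GRCm38.p5, per the submitters' processing notes. The annotation release, the calling of cells and the use of strand are not given in the sources used here. Barcodes with at least 300 genes and at most 10% mitochondrial UMIs were kept. No doublet caller was used, and an alternative left out the 5% of cells with most UMIs. Cells of the 3 libraries were clustered together with scanpy 1.11.5 (2000 variable genes, 30 components, 15 neighbours, Leiden resolution 1.0), without the 8 genes and the 55 other pathway genes. Clusters were named from marker scores, with limits of 0.3 for a vessel class, -0.5 for the endothelial list and 1.0 for another cell type, set after the data were seen. UMIs were summed per class and library and given as CPM. Log2 ratios had a prior count of 0.5, and a gene counted as past the fold at a log2 ratio of 0.322 or more in size with at least 20 UMIs over both libraries. CPM depends on the other RNA of the same cells, and 3' counts do not allow levels of different genes to be compared. Other pathway genes were named where they had at least 100 UMIs and passed the fold in 1 direction against both other libraries, with Notch2, Notch3, Hey2, Heyl and Nrarp always named. Dll1 and the clusters discussed were chosen after their values were seen. The 8 genes and the lists were chosen with earlier results of these data known. edgeR 4.0.16 supplied only TMM factors for an alternative. The ratio step was tested on simulated data. Alternatives covered filters, clustering, thinning, scaling and the prior count.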

Additional observations from a re-analysis of the deposited data

How the results depend on the processing

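Over 16 alternatives, Notch4 stayed past the fold lower in running than in sedentary capillary-like cells, and Dll4 and Notch4 lower in untreated than in sedentary ones. Hey1 and Jag1 stayed past the fold higher in artery-like than in capillary-like cells of every library. The count of the 8 genes past the fold between running and sedentary capillary-like cells, 3 in the report, was 1 when clustered without immediate-early genes, 1 when thinned to 1000 UMIs and 6 with the mean of single-cell CPM. That of artery-like cells, 2 in the report, was 1 with at least 500 genes per cell, with at most 5% mitochondrial UMIs, at Leiden resolution 2.0, without immediate-early genes and with the mean of single-cell CPM. That of vein-like cells, 3 in the report, was 0 when thinned and 1 with the mean of single-cell CPM or with cells of 1000 to 2000 UMIs, an alternative added after the data were seen. Running against untreated capillary-like cells gave 4 in place of 2 with the mean of single-cell CPM, and untreated against sedentary ones gave 4 in place of 2 with that mean, with at most 5% mitochondrial UMIs and without immediate-early genes. The other pathway genes gave 18 in place of 11 with no minimum of UMIs, where genes of few counts enter. Among cells of 1000 to 2000 UMIs the running to sedentary log2 ratios that the report gives as past the fold reversed to 0.05 for Hey1 in capillary-like cells and, in vein-like cells, to 0.11 for Jag1 and 2.18 for Rbpj, and for Rbpj it was 0.046 without the 5% of cells with most UMIs. Ratios short of the fold also turned sign among cells of 1000 to 2000 UMIs: in capillary-like cells Notch1 (0.26), Dll4 (0.08) and Rbpj (0.04), and in artery-like cells Notch1 (-0.41, past the fold), Dll4 (0.16), Jag1 (-0.09), Jag2 (0.14) and Rbpj (-0.18). Apart from that minimum and the smaller samples left by thinning and depth ranges, the cause was not tested. No paired analysis was possible because each group had 1 library, and for the same reason none could be left out. Rbpj, with 19 to 129 UMIs in a class and library, and the vein-like and lymphatic-like classes, with few cells, have wide intervals.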
